A study of Mus musculus with 6 samples.

Results

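CDK1 with a B-type cyclin forms the kinase that drives a cell into M phase, and 10 mouse genes that encode it and its direct switches were examined in oocytes deleted for Lsd1. The genes were taken by symbol: Cdk1, the cyclins Ccnb1, Ccnb2 and Ccnb3, the phosphatases Cdc25a, Cdc25b and Cdc25c, and the kinases Wee1, Wee2 and Pkmyt1. All 10 were found among 23284 gene symbols. RNA was sequenced from fully grown germinal vesicle (GV) oocytes. The females were 4 to 6 weeks old, of mixed C57BL/6-129 strain, and had been injected 48 hours earlier with pregnant mare's serum gonadotrophin at 5 IU. The 3 Lsd1 KO and 3 Control libraries each came from 100 oocytes, pooled per library. The driver of the deletion and the alleles of the Control animals are details not given in the sources used here. LSD1, a histone demethylase, is listed under its gene symbol Kdm1a.

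A fully grown oocyte waits in prophase of meiosis with CDK1 and cyclin B already present but held inactive. WEE1, its oocyte form WEE2 and the membrane-bound kinase MYT1 (Pkmyt1) place inhibitory phosphates on CDK1, and CDC25 phosphatases take them off. High cyclic AMP in the arrested oocyte keeps protein kinase A active, which favours WEE2 and restrains CDC25B. When cyclic AMP falls the switch turns over, CDK1 is activated and the nuclear envelope breaks down. Here the mRNAs were measured, not the proteins or their phosphorylation.

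RefSeq promoter windows (GRCm38.p6, 250 bases before to 50 after the start of the gene) were at hand for 7 of the 10 genes; Cdc25c, Wee1 and Pkmyt1 had none. Shown are those of Cdc25b, the gene of the set with the clearest difference between genotypes, of its relative Cdc25a, and of Ccnb1, which encodes the main mitotic and meiotic partner of CDK1. Capitals mark matches, on either strand, to the CCAAT box and the TATAA motif, and to 3 forms of the element known as CHR that many late cell cycle genes carry (the TTTGAA form, the TTTAAA form and the TTCGAA form). No 2 of the marked matches overlap.
Cdc25b, chr2:131186698-131186997, plus strand: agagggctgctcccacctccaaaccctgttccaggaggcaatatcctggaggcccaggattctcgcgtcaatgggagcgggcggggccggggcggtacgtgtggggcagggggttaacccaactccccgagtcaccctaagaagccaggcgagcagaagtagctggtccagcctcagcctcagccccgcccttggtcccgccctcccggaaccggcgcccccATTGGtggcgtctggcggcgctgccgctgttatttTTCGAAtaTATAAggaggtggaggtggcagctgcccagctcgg
Cdc25a, chr9:109875329-109875628, plus strand: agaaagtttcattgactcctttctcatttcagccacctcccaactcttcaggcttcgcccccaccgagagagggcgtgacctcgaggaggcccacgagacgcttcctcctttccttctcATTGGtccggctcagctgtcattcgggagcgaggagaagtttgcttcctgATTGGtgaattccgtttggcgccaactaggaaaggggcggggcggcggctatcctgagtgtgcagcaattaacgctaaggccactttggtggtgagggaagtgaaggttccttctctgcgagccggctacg
Ccnb1, chr13:100786437-100786736, minus strand: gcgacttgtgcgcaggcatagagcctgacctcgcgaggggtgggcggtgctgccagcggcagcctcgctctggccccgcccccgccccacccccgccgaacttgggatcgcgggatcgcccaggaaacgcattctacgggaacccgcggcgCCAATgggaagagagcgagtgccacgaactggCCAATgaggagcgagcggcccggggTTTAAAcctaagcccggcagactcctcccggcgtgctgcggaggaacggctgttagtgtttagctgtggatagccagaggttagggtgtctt
The Cdc25b window held 1 CCAAT box, 1 TATAA and 1 TTCGAA. Both the TTCGAA and the TATAA lay past the gene start, starting 7 and 15 bases beyond it. TTCGAA was found in 1.56% of 32851 RefSeq windows of the same length, and TATAA in 24.9%. Cdc25a held 2 CCAAT boxes and none of the CHR forms, and Ccnb1 held 2 CCAAT boxes and 1 TTTAAA. In the windows not shown, Cdk1 and Ccnb2 each had 3 CCAAT boxes and 2 TTTGAA, Wee2 had 2 CCAAT boxes and 1 TATAA, and Ccnb3 had 2 TTTAAA and 1 TATAA. Among all windows 37.4% had a CCAAT box, 11.7% had at least 2 and 3.37% had at least 3. TTTGAA was in 17.9% of windows, with at least 2 in 2.31%, and TTTAAA was in 13.2%, with at least 2 in 1.73%. A match of letters shows no bound factor.

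The libraries held 10735422 to 13035045 counts in genes. Levels are CPM, counts scaled by TMM to a common library size. Kdm1a stood at 3.77, 2.80 and 3.23 CPM in Lsd1 KO, against 73.9, 72.5 and 44.4 CPM in Control, so each library had the level its label calls for. The 10 oocyte markers summed to 31764 to 36262 CPM in Lsd1 KO, against 21522 to 24460 CPM in Control; 2 (Gdf9 and Oosp1) were higher and 1 (Mos) lower in Lsd1 KO. Gdf9 made the gap, since the other 9 summed to 17282 to 19312 CPM in Lsd1 KO, against 14507 to 18891 CPM in Control, and overlapped. The granulosa markers, 14 in all, summed to 365 to 467 CPM in Lsd1 KO, against 127 to 147 CPM in Control. Most of the sum was Cyp19a1 (higher in Lsd1 KO) and Nr5a2 (lower in Lsd1 KO). Inha was also called higher (edgeR adjusted p = 0.0430). Its level was 21.7, 12.5 and 51.6 CPM in Lsd1 KO, against 10.7, 7.61 and 15.2 CPM in Control. Amh, Fshr and Foxl2 stayed at or below 6.01 CPM in all 6 libraries. Of the tested markers that did not pass, Fshr, Foxl2, Inhba, Inhbb, Hsd17b1 and Slc38a3 had higher means in Lsd1 KO. Kitl had a lower mean and did not pass either. Without Cyp19a1 the granulosa sum was 62.5 to 126 CPM in Lsd1 KO, against 96.9 to 98.6 CPM in Control, and overlapped. That remainder still held Nr5a2, at 25.7, 27.1 and 33.2 CPM in Lsd1 KO, against 67.5, 73.0 and 67.7 CPM in Control. A fall in Nr5a2 can offset a rise in other markers, so the overlap does not show that they were alike. Theca and stroma markers, 11 in all, summed to 10.8 to 17.3 CPM in Lsd1 KO, against 3.51 to 4.34 CPM in Control; without Dcn they summed to 3.70 to 9.52 CPM in Lsd1 KO, against 3.24 to 3.97 CPM in Control, and overlapped. Blood and immune markers, 12 in all, summed to 144, 29.8 and 141 CPM in Lsd1 KO, against 44.6, 21.5 and 58.2 CPM in Control, with the 4 globin genes at 0 throughout. The part of such cells in the results below was not tested. Among the tested markers 2 of 10 granulosa, 1 of 3 theca and 1 of 6 blood and immune genes were higher in Lsd1 KO. The share of all genes tested that was higher was 11%. The blood and immune gene was Cd68 (edgeR adjusted p = 0.0281), at 24.6, 5.86 and 24.4 CPM in Lsd1 KO, against 3.42, 2.79 and 8.94 CPM in Control. In 100 pooled oocytes, less RNA per oocyte cannot be told apart from fewer oocytes that hold it.

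Of the 10 genes, all of which passed the filter on low counts, Cdc25b rose in Lsd1 KO oocytes, none fell, and the other 9 did not pass. The test was edgeR's quasi-likelihood test with Benjamini-Hochberg adjustment over 12935 genes and a threshold of 0.05. By that rule 21.3% of all genes were called, 11% higher and 10.3% lower, and 7.31% were higher by at least 2-fold, so 1 call in 10 genes is no more than the background share. The median log2 fold change of the 10 was -0.04, beside -0.01 over all genes tested. CPM values of the 2 genotypes did not overlap for Cdc25b, Cdk1 and Ccnb1, 3 of the 10, beside 38.7% of all genes (19.5% with Lsd1 KO higher and 19.1% with it lower). The count of 1 higher was the same in all 17 alternative settings, while the count lower was 1, through Wee1, without Control replicate 3 and after a length and GC correction.

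**Figure D1:**
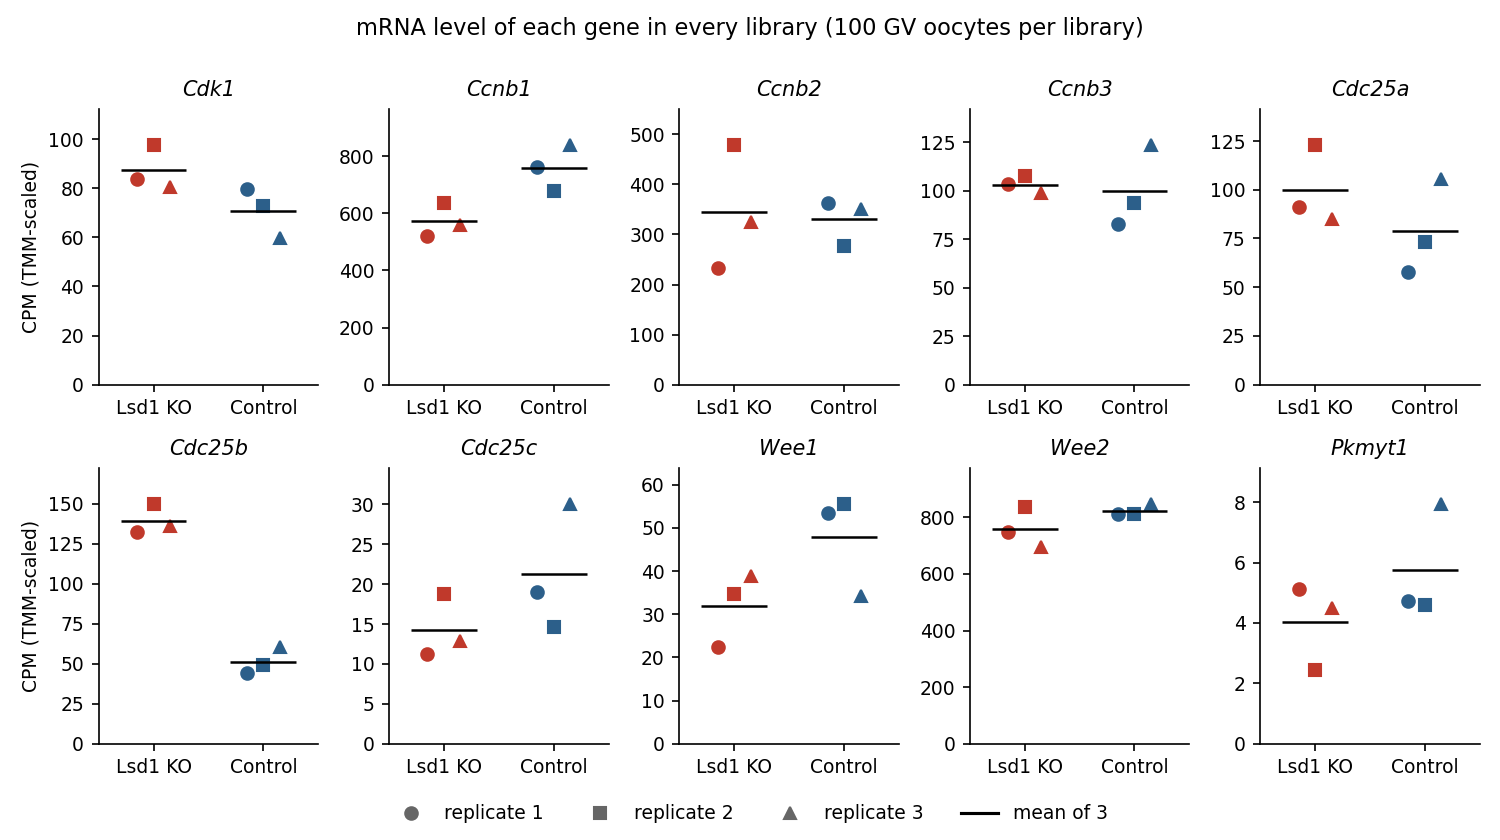
Level of each of the 10 genes in every library, in CPM after TMM scaling on a linear axis from 0; red symbols are Lsd1 KO, blue symbols Control, symbol shape gives the replicate number and the black line is the mean of 3. Cdc25b sits at 132 to 150 CPM in Lsd1 KO, against 44.1 to 60.7 CPM in Control with no overlap.

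Cdk1 encodes the kinase itself. Its level was 83.9, 97.8 and 80.5 CPM in Lsd1 KO, against 79.7, 72.6 and 59.8 CPM in Control. The lowest Lsd1 KO library and the highest Control library were almost level. The log2 fold change of Cdk1 was 0.31 ± 0.18 (SE), with a 95% interval of -0.09 to 0.70 and an edgeR adjusted p of 0.252. Cdk1 lies on chromosome 10 from 68799383 to 68815686 (mm9, minus strand).

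Ccnb1, cyclin B1, whose translation and destruction time entry into and exit from meiotic M phase, was at 522, 635 and 559 CPM in Lsd1 KO, against 762, 679 and 841 CPM in Control. Every Lsd1 KO library lay below every Control library. Over all genes tested the difference still did not pass: the log2 fold change of Ccnb1 was -0.41 ± 0.17, its 95% interval was -0.79 to -0.04, and its edgeR p of 0.0337 became 0.109 after adjustment. The adjusted p of Ccnb1 ran from 0.0713 to 0.366 over 15 other fits. The gene is on chromosome 13 from 101548605 to 101556525 (mm9, minus strand). Its longest transcript aligned to 6 other places in the mm9 genome, each a copy without the introns, of which 1 on chromosome 7 from 49361154 to 49362678 (Gm5593) matched 99.2% of 1525 transcript bases and 1 on chromosome 4 from 118614556 to 118616059 (Gm12856) 98.3% of 1503. None of the 6 copies has a symbol in the count files, and the treatment of reads with several matches is unknown here, so the level of Ccnb1 is uncertain. The other 9 genes had no second alignment of this kind.

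Ccnb2, cyclin B2, which can stand in for cyclin B1 in mouse oocytes, was spread widely: 232, 479 and 324 CPM in Lsd1 KO, against 364, 276 and 351 CPM in Control. Lsd1 KO replicates 1 and 2 were the lowest and the highest of all 6 libraries. Its log2 fold change was 0.06 ± 0.24 with a 95% interval of -0.46 to 0.59 (edgeR adjusted p = 0.878). Ccnb3, the cyclin that mouse oocytes need for anaphase of the first meiotic division, was at 103, 107 and 98.6 CPM in Lsd1 KO, against 82.9, 93.6 and 124 CPM in Control. Those groups overlapped, and the log2 fold change of Ccnb3 was 0.04 ± 0.19 with a 95% interval of -0.36 to 0.45 (edgeR adjusted p = 0.892). Ccnb2 and Ccnb3 lie on chromosome 9 from 70255496 to 70269361 and on X from 6556778 to 6618745 (mm9).

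Cdc25b, which mouse oocytes need to leave prophase arrest, was at 132, 150 and 136 CPM in Lsd1 KO, against 44.1, 49.3 and 60.7 CPM in Control. Counts behind these values were 1652, 1662 and 1513 in Lsd1 KO, against 477, 654 and 672 in Control. The lowest Lsd1 KO library had more than the highest Control library by a margin far beyond the spread within either genotype. The log2 fold change of Cdc25b was 1.44 ± 0.18 (2.71-fold; 95% interval 1.05 to 1.83; edgeR adjusted p = 3.25e-04), and 90.9% of genes tested had a smaller change in either direction. It passed in all 15 other fits, with a log2 fold change of 1.32 to 1.56. The gene covers chromosome 2 from 131012685 to 131024233 (mm9, plus strand), and Spef1 on the minus strand shares 92 exon bases with it at 0.882, 0.902 and 3.32 CPM in Lsd1 KO, against 0.462, 0.151 and 1.90 CPM in Control.

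Its relatives did not pass. Cdc25a, best known for the G1 to S transition and also active on CDK1, was at 91.2, 123 and 85.1 CPM in Lsd1 KO, against 57.7, 73.1 and 105 CPM in Control. Control replicate 3 lay above 2 of the 3 Lsd1 KO libraries. The log2 fold change of Cdc25a was 0.34 ± 0.23 with a 95% interval of -0.16 to 0.85 (edgeR adjusted p = 0.322). Cdc25c, a mitotic phosphatase without which mice develop and breed normally, was at 11.3, 18.8 and 12.8 CPM in Lsd1 KO, against 19.1, 14.7 and 30.1 CPM in Control. The groups overlapped, and its log2 fold change was -0.57 ± 0.31 with a 95% interval of -1.23 to 0.09 (edgeR adjusted p = 0.203). The upper ends of both intervals lie below the lower end of that of Cdc25b. Cdc25a and Cdc25c are on chromosomes 9 (109778083 to 109796392) and 18 (34892651 to 34911187) of mm9.

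Among the inhibitory kinases the most abundant was Wee2, the oocyte form, at 748, 837 and 696 CPM in Lsd1 KO, against 811, 812 and 848 CPM in Control. Lsd1 KO replicate 2 lay within the range of the Control libraries and the others below it. The log2 fold change of Wee2 was -0.11 ± 0.16 with a 95% interval of -0.47 to 0.24 (edgeR adjusted p = 0.658), an interval that leaves no room for a change of 2-fold. Wee1, the form found in dividing somatic cells, was at 22.4, 34.7 and 38.8 CPM in Lsd1 KO, against 53.5, 55.6 and 34.3 CPM in Control. Control replicate 3 was as low as the Lsd1 KO libraries, and the others stood above all 3 of them. The log2 fold change of Wee1 was -0.58 ± 0.25 with a 95% interval of -1.12 to -0.04, and its edgeR p of 0.0371 became 0.117 after adjustment. Without Control replicate 3 it was -0.79 and the adjusted p 0.0390, and after the length and GC correction -0.81 with an adjusted p of 0.0336; over the 15 other fits the adjusted p of Wee1 ran up to 0.410.

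Pkmyt1 was the least abundant of the 10 genes, with 64, 27 and 50 counts in Lsd1 KO and 51, 61 and 88 counts in Control. Those counts gave 5.13, 2.44 and 4.49 CPM in Lsd1 KO, against 4.72, 4.59 and 7.95 CPM in Control, and the groups overlapped. Its log2 fold change was -0.51 ± 0.41, and the 95% interval of -1.41 to 0.39 was the widest of the set (edgeR adjusted p = 0.406). Paqr4 on the opposite strand shares 313 exon bases with Pkmyt1 and was at 5.12 CPM in Lsd1 KO, against 8.66 CPM in Control, so without knowledge of the strand setting reads of the overlap cannot be told apart. Wee2, Wee1 and Pkmyt1 lie on chromosomes 6 (40392862 to 40416812), 7 (117265864 to 117285626) and 17 (23863303 to 23873696) of mm9.

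**Figure D2:**
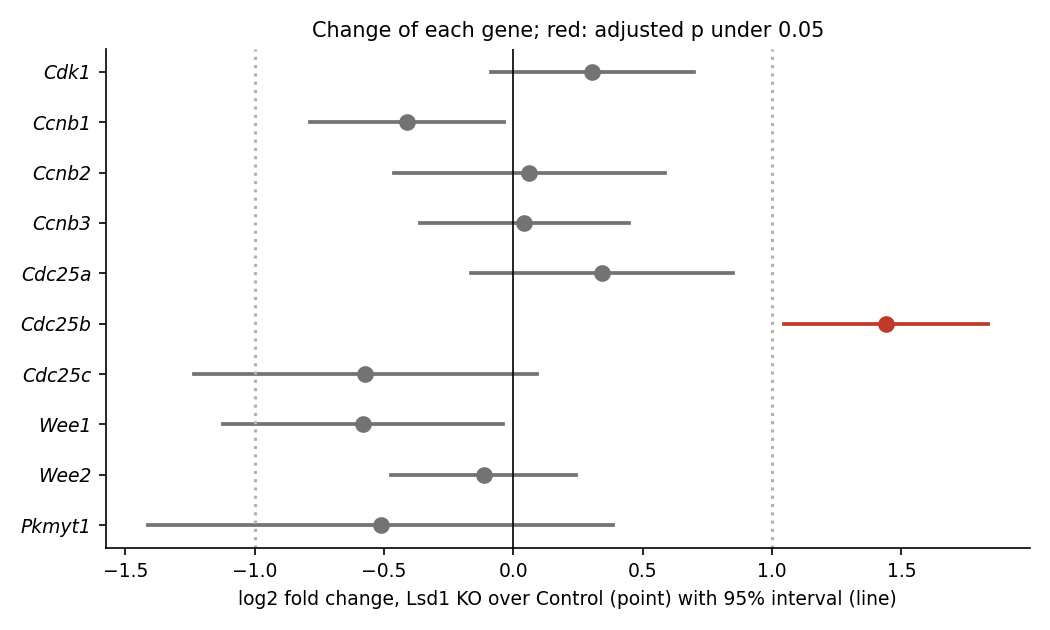
Log2 fold change of each of the 10 genes, Lsd1 KO over Control, as a point with its 95% interval as a line; dotted lines mark a 2-fold change in either direction and red marks an edgeR adjusted p under 0.05. Cdc25b, at 1.44 with an interval of 1.05 to 1.83, is the gene whose whole interval lies past 2-fold.

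Levels of different genes were compared per kilobase of annotated exon (CPM per kb). Wee2 led in both genotypes, at 251 ± 23.5 CPM per kb in Lsd1 KO, against 272 ± 6.91 CPM per kb in Control (SD, n = 3 each), above 98.6% of 12503 genes in Lsd1 KO and 98.7% in Control. Ccnb2 and Ccnb1 followed, at 224 ± 81.0 and 136 ± 13.7 CPM per kb in Lsd1 KO, against 215 ± 30.7 and 180 ± 19.2 CPM per kb in Control. Cdk1 itself was far lower than these cyclins, at 25.4 ± 2.65 CPM per kb in Lsd1 KO, against 20.5 ± 2.93 CPM per kb in Control. Summed over the 3 B-type cyclins the level was 12.2, 17.1 and 15.6 times that of Cdk1 in Lsd1 KO libraries and 18.8, 17.1 and 26.2 times in Control libraries. Pkmyt1 was lowest in both genotypes, at 1.97 ± 0.691 CPM per kb in Lsd1 KO, against 2.82 ± 0.933 CPM per kb in Control.

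Cdc25b changed its place in this order. It was the 4th of the 10 genes in Lsd1 KO, at 37.4 ± 2.48 CPM per kb, and the 8th in Control, at 13.8 ± 2.28 CPM per kb. In Lsd1 KO its library range lay above that of the next gene, Cdc25a, and below that of Ccnb1. In Control its range lay below that of Cdk1 and overlapped that of Cdc25c. Other neighbours whose library ranges overlapped were Wee2 with Ccnb2, Cdc25a with Cdk1, and Cdk1 with Ccnb3 in Lsd1 KO; in Control they were Ccnb2 with Ccnb1, Wee1 with Ccnb3, Ccnb3 with Cdc25a, and Cdc25a with Cdk1. With the longest transcript in place of the union of exons, Ccnb1 came to 305 CPM per kb in Control, above Wee2 at 286, so the order of the leading genes depends on the length used. The annotated exons of Wee1 hold coding sequence only, and its per-length level, 16.5 ± 4.38 CPM per kb in Lsd1 KO, against 24.6 ± 6.04 CPM per kb in Control, is too high if reads of its untranslated ends were counted.

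**Figure D3:**
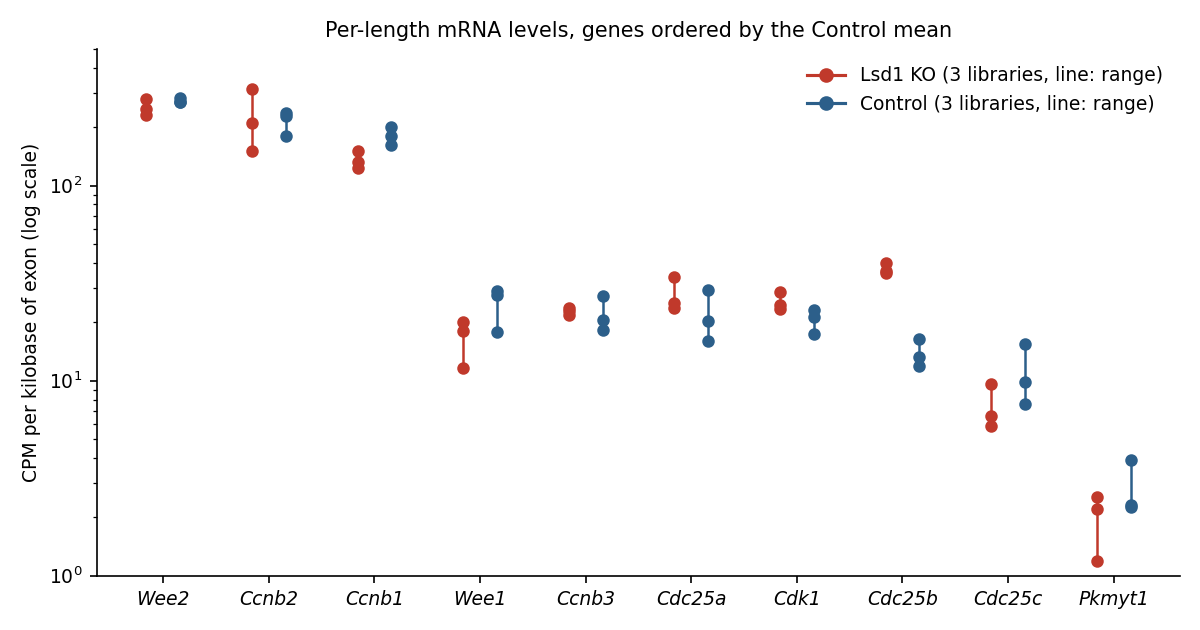
Per-length level (CPM per kilobase of exon, log axis) of the 10 genes ordered by their Control mean; points are libraries, lines their range, red Lsd1 KO and blue Control. Wee2, Ccnb2 and Ccnb1 stand above 100 CPM per kb in every library, and Cdc25b lies at 37.4 CPM per kb in Lsd1 KO and 13.8 in Control.

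Within the CDC25 family the make-up of the mRNA pool shifted towards Cdc25b. Cdc25b made up 53.4%, 48.0% and 54.8% of the summed per-length CDC25 level in Lsd1 KO libraries, against 31.5%, 32.3% and 26.8% in Control libraries. Cdc25a made up 37.9% ± 2.61 in Lsd1 KO and 46.5% ± 3.62 in Control, and Cdc25c 10.1% ± 1.39 in Lsd1 KO and 23.4% ± 4.24 in Control (SD, n = 3 each). The ratio of Cdc25b to Cdc25a was 1.41, 1.18 and 1.55 in Lsd1 KO libraries, against 0.744, 0.655 and 0.561 in Control libraries. In every Lsd1 KO library Cdc25b was thus the more abundant of the pair, and in every Control library Cdc25a was. These ratios include the gene that the test called and are given as descriptions, with no test.

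The inhibitory side kept its make-up more closely. Wee2 made up 93.1% ± 1.74 of the summed per-length level of Wee1, Wee2 and Pkmyt1 in Lsd1 KO and 90.8% ± 1.76 in Control. The sum of the 3 kinases was 261, 295 and 252 CPM per kb in Lsd1 KO libraries, against 298, 299 and 302 CPM per kb in Control libraries. The CDC25 sum was 66.5, 83.8 and 66.5 CPM per kb in Lsd1 KO libraries, against 37.6, 41.0 and 60.8 CPM per kb in Control libraries. CDC25 over WEE1 and MYT1 thus came to 0.255, 0.284 and 0.264 in Lsd1 KO libraries, against 0.126, 0.137 and 0.202 in Control libraries. The groups did not overlap, and the log2 ratio was higher by 0.82 in Lsd1 KO, with an SD between replicates of 0.26 pooled over both genotypes. The CDC25 sum holds Cdc25b, the gene that the test called, so this ratio does not show a shift apart from that gene. Control libraries spread more (log2 ratio -2.99, -2.87 and -2.31) than Lsd1 KO libraries (-1.97, -1.82 and -1.92). Control replicate 3, which also had the highest Control levels of Cdc25a and Cdc25c, was the closest to the Lsd1 KO libraries, and without it the log2 difference was 1.02. Cdc25b alone over Wee2 was 0.149 ± 0.00802 in Lsd1 KO and 0.0505 ± 0.00708 in Control, a ratio of 2.95 between the genotypes. Per-length mRNA ratios do not measure enzyme activity.

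**Figure D4:**
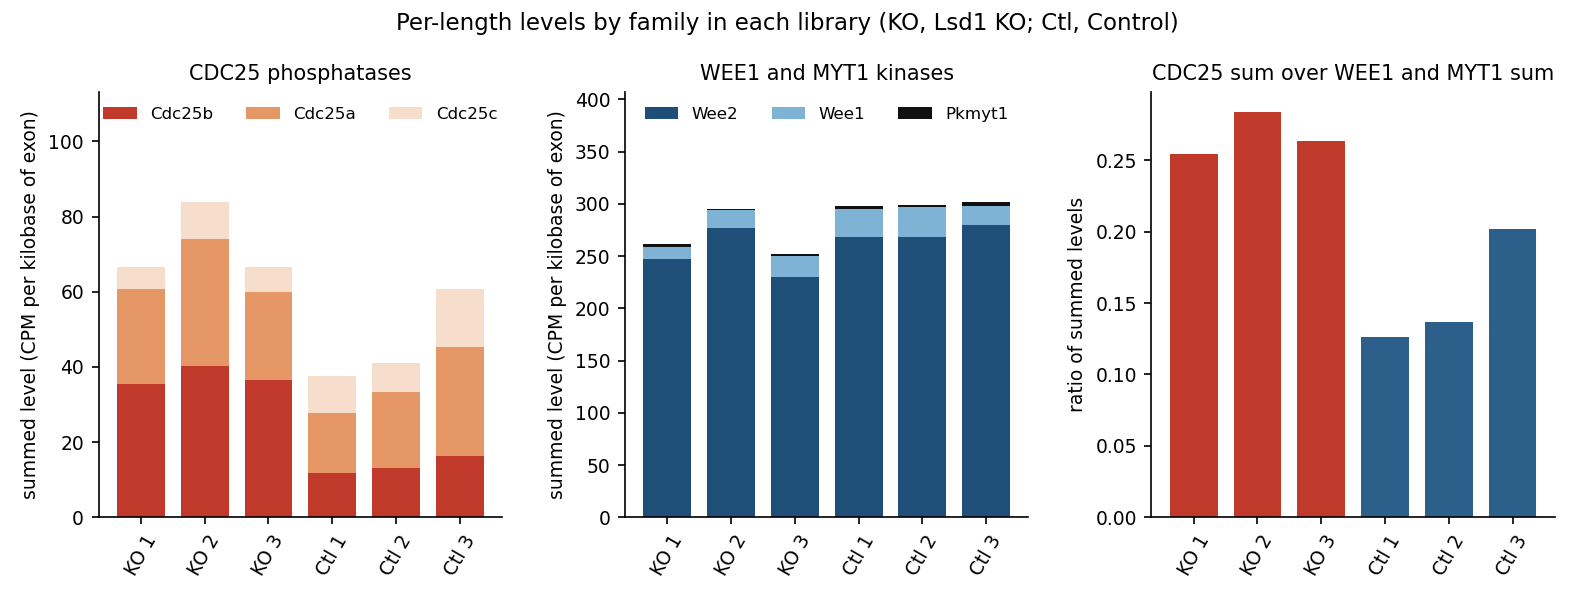
Summed per-length levels in each library (KO, Lsd1 KO; Ctl, Control): stacked bars for the CDC25 genes (left) and for Wee2, Wee1 and Pkmyt1 (middle), in CPM per kilobase of exon, and their ratio (right). The Cdc25b share is larger in each Lsd1 KO bar, and the ratio is 0.255 to 0.284 in Lsd1 KO and 0.126 to 0.202 in Control.

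Genes that act around this switch were read from 5 lists. Of 72 such genes tested, 11 rose and 5 fell in Lsd1 KO oocytes, or 22.2%, close to the 21.3% of all genes. A length and GC correction gave 9 higher and 10 lower. With the replicate block 3 were lower, and fits that left out replicate 1 or 3 of Lsd1 KO, or replicate 2 of Control, had 2, 2 and 3 lower. Among 29 kinases, phosphatases and 14-3-3 proteins that act on CDC25 and WEE1, 2 rose and 1 fell, with a median log2 fold change of -0.12 beside -0.01 for all genes. Cdc14b, a phosphatase that in mouse oocytes opposes resumption of meiosis, was at 327 ± 42.5 CPM in Lsd1 KO, against 156 ± 23.8 CPM in Control (log2 1.07 ± 0.18, edgeR adjusted p = 0.00218). Aurka, Aurora kinase A, known to phosphorylate CDC25B in human cells, was at 257 ± 13.0 CPM in Lsd1 KO, against 154 ± 31.4 CPM in Control (log2 0.74 ± 0.18). Brsk2, a kinase of the AMPK family, fell to 14.1 ± 2.50 CPM in Lsd1 KO, against 27.1 ± 3.45 CPM in Control (log2 -0.94 ± 0.23). The Aurka call was lost in edgeR fits that left out Control replicate 1 or 2 (adjusted p = 0.0648 and 0.0593) and after the length and GC correction (0.0565), and the Brsk2 call in the fit that left out Lsd1 KO replicate 3 (0.0656). Ywhae, the most abundant gene of this list that did not pass, was at 873 ± 61.5 CPM in Lsd1 KO, against 732 ± 273 CPM in Control.

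Other CDK partners, the CDK-activating kinase and CDK inhibitors gave 5 higher and none lower of 10 tested, with a median log2 fold change of 0.80. Over all genes tested 11% were higher and 10.3% lower, and the median was -0.01. This list was chosen with earlier results of these data known, so its count was not tested. All 3 subunits of the CDK-activating kinase, which phosphorylates CDK1 on its activating site, rose. Cdk7 was at 1143 ± 247 CPM in Lsd1 KO, against 490 ± 64.6 CPM in Control (log2 1.22 ± 0.20), Ccnh, cyclin H, at 55.4 ± 6.75 CPM in Lsd1 KO, against 27.6 ± 7.42 CPM in Control, and Mnat1, the assembly factor, at 48.6 ± 18.6 CPM in Lsd1 KO, against 21.2 ± 1.26 CPM in Control. The edgeR adjusted p was 0.00170, 0.00877 and 0.00906 for Cdk7, Ccnh and Mnat1, and each held with any 1 library left out. Cks1b, a small CDK-binding protein, was at 183 ± 13.7 CPM in Lsd1 KO, against 118 ± 35.0 CPM in Control, and Cdkn1a, the CDK inhibitor p21, at 8.31 ± 2.90 CPM in Lsd1 KO, against 2.58 ± 0.951 CPM in Control. Cks1b, with an edgeR adjusted p of 0.0490, was at 0.129, 0.0794 and 0.0807 without Lsd1 KO replicates 1, 2 and 3 and at 0.163 and 0.168 without Control replicates 1 and 2, and did not pass after the length and GC correction (0.269). The Cdkn1a call (edgeR adjusted p = 0.0152) was lost when Lsd1 KO replicate 1 (0.0746) or Control replicate 2 (0.0558) was left out. Cks2, a close relative of Cks1b, did not pass (edgeR adjusted p = 0.0624), at 308 ± 48.8 CPM in Lsd1 KO, against 452 ± 85.1 CPM in Control; without Control replicate 3 its adjusted p was 0.0308.

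Phosphatase control that opposes CDK1 gave 3 higher and 1 lower of 11 tested (median log2 -0.10). Of all genes tested 11% were higher and 10.3% lower. Ensa, which when phosphorylated inhibits the phosphatase PP2A, was at 31.4 ± 8.31 CPM in Lsd1 KO, against 16.8 ± 1.31 CPM in Control. Of the regulatory B subunits of PP2A, Ppp2r2a was at 174 ± 24.7 CPM in Lsd1 KO, against 91.3 ± 17.9 CPM in Control, and Ppp2r2c at 14.4, 2.62 and 5.57 CPM in Lsd1 KO, against 0.277, 0.301 and 0.632 CPM in Control. Their edgeR adjusted p was 0.00604 for Ppp2r2a and 0.00177 for Ppp2r2c. The scaffold subunit Ppp2r1b fell to 24.7 ± 4.00 CPM in Lsd1 KO, against 39.2 ± 5.98 CPM in Control (log2 -0.67 ± 0.21, edgeR adjusted p = 0.0381). The Ensa call was lost in edgeR fits leaving out replicate 1 of Lsd1 KO or of Control (adjusted p = 0.0976 and 0.0580). That of Ppp2r1b was lost on leaving out Lsd1 KO replicates 1 or 2 (0.143 and 0.0959) or Control replicates 2 or 3 (0.0938 and 0.0841), with the replicate block (0.0505), with upper-quartile scaling (0.0530) or with a filter of 10 CPM in 3 libraries (0.0513). Mastl, the kinase known as Greatwall that phosphorylates Ensa, did not pass, at 340 ± 31.7 CPM in Lsd1 KO, against 365 ± 52.5 CPM in Control.

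None of 11 genes for the turnover of cyclin B, CDC25 and WEE1 passed, beside 21.3% of all genes tested. Their median log2 fold change was 0.24. The most abundant of them, Usp28, was at 252 ± 24.9 CPM in Lsd1 KO, against 269 ± 40.7 CPM in Control. Btrc came closest to the threshold, at 183 ± 13.9 CPM in Lsd1 KO, against 128 ± 19.4 CPM in Control (edgeR adjusted p = 0.0536). Without Control replicate 3, Btrc and Trp53 passed (edgeR adjusted p = 0.0271 and 0.0482). Btrc and Trp53 were named after their values were seen. Among 11 genes for the translation of cyclin B mRNA, 1 rose and 3 fell (median log2 -0.01), beside 11% and 10.3% of all genes tested. Dazl, which drives translation of stored oocyte mRNAs, fell to 323 ± 13.5 CPM in Lsd1 KO, against 801 ± 144 CPM in Control (log2 -1.31 ± 0.18, edgeR adjusted p = 6.81e-04), while the deadenylase Parn was at 157 ± 20.2 CPM in Lsd1 KO, against 61.2 ± 12.4 CPM in Control (log2 1.36 ± 0.20, edgeR adjusted p = 7.86e-04). Pum2, an RNA-binding repressor, was at 161 ± 11.1 CPM in Lsd1 KO, against 253 ± 54.4 CPM in Control. Msi2, an RNA-binding protein of the Musashi family, was at 13.6, 3.34 and 16 CPM in Lsd1 KO, against 15.6, 24.0 and 108 CPM in Control. The Msi2 call did not hold without Lsd1 KO replicates 1, 2 or 3 (edgeR adjusted p = 0.0700, 0.0756 and 0.0516) or Control replicate 3 (0.231), by DESeq2 (0.0995) or by limma-voom (0.0778). That of Pum2 was lost on leaving out Lsd1 KO replicates 1 or 3 (0.0976 and 0.121), without Control replicate 2 (0.142) or with the replicate block (0.0551). Btg4, the most abundant gene of the list that did not pass, was at 949 ± 112 CPM in Lsd1 KO, against 838 ± 168 CPM in Control.

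**Figure D5:**
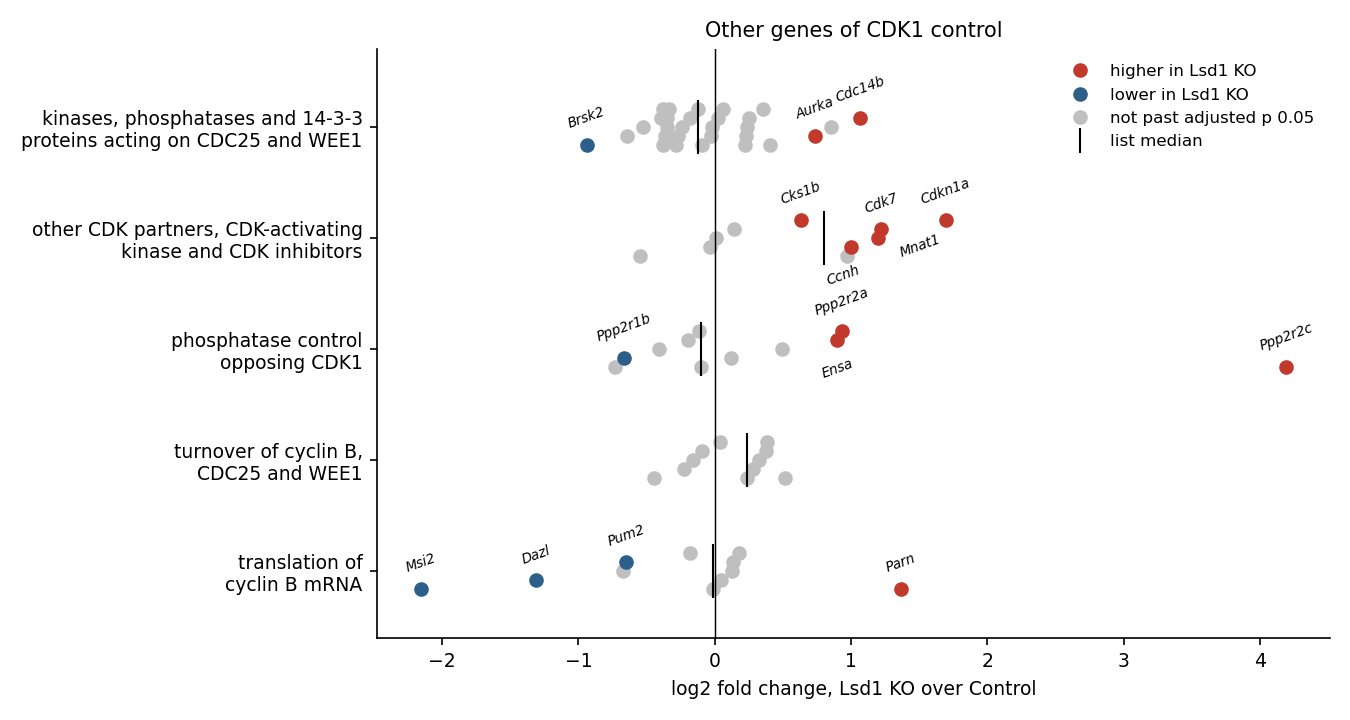
Log2 fold change, Lsd1 KO over Control, of the 72 tested genes in 5 lists around CDK1 control; red points were called higher, blue points lower and grey points not called, a black tick is the list median, and height within a list has no meaning. The list of CDK partners and the CDK-activating kinase has its median at 0.80, beside -0.01 over all genes tested, and no gene of the turnover list is called.

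The genes whose pattern over the 6 libraries was most like that of Cdc25b, by Pearson's r of log2 CPM among 8639 other genes of at least 10 CPM in the higher genotype, included Gdf9 and Trim6, each with r of 0.998. All 6 points share the split by genotype, and 367 genes had an r of at least 0.95, so genes that merely differ between the genotypes can reach a high r. Gdf9, an oocyte growth factor, was at 15558 ± 1264 CPM in Lsd1 KO, against 6057 ± 830 CPM in Control. The ubiquitin ligase Trim6 was at 89.0 ± 28.7 CPM in Lsd1 KO, against 0.906 ± 0.538 CPM in Control.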

How the data were processed

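Per the labels, GV oocytes were lysed 100 to a sample, RNA was amplified as cDNA with the NuGEN Ovation system, and TruSeq libraries were sequenced as pairs. The files deposited by the authors give raw read counts per gene, 1 column of whole numbers a library. HTSeq 0.5.3p9, TopHat2 2.0.7, CASAVA 1.8.2 and the mm9 build are listed in the submitters' processing notes. Gene models, strand setting and handling of reads with several matches: not given in the sources used here.

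Genes were kept by filterByExpr of edgeR 4.0.16 (minimum count 10; 12935 of 23284), scaled by TMM and tested by the quasi-likelihood F test, two-sided, in R 4.3.3, with Benjamini-Hochberg adjustment. Standard errors and 95% intervals were derived from the fold change and F statistic. Whether the biological replicates named in the design came from separate animals is not stated, so p-values measure the spread between these libraries. Exon lengths and positions came from GENCODE M1 (NCBIM37, the assembly of mm9), which placed 21709 symbols. Copies were sought with minimap2 2.31. Named were the 10 genes, Kdm1a, genes that overlap them, all called genes and the most abundant uncalled gene of each list, and the 3 genes most like a called member, of which 1 is not reported here. Cell type markers, Btrc and Trp53 were named after their values were seen. So were the markers left out of a marker sum, each the gene with the largest CPM difference in its list.

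The 10 genes and all lists were chosen with earlier results of these data known. In the lists 2 symbols matched by synonym and 1 entry did not match. Alternatives were DESeq2 1.42.0 size factors and Wald test, limma-voom (limma 3.58.1), other scalings and filters, a replicate block, each library left out, stricter thresholds, a length and GC correction (loess, span 0.5), and, for the family ratio, other lengths and members. Leaving Wee1 out of that ratio was chosen after seeing the data.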

Additional observations from a re-analysis of the deposited data

How the results depend on the processing

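Cdc25b passed in all 15 other fits. Of 149 values of the 10 genes under other fits, 142 kept direction and side of the threshold, 2 (both Wee1, given above) came to pass and 5 turned sign: Ccnb2 to -0.27 and -0.04 without Lsd1 KO replicate 2 and Control replicate 2 (range -0.27 to 0.31) and to -0.14 with the length and GC correction, and Ccnb3 to -0.01 and -0.10 without Lsd1 KO replicate 2 and Control replicate 1 (range -0.10 to 0.21). The cause was not tested. The number of the 10 genes lower was 0, and 1 with the length and GC correction and in 1 of the fits that leave out a library (range 0 to 1). All genes higher numbered 1421, 676 at an adjusted p under 0.01 and 945 at a change of at least 2-fold, and 932 to 1466 with a library left out; all genes lower numbered 1329, 497, 625 and 638 to 1346 likewise. Shifts beyond 1.5 times came on leaving out Control replicate 1 (932 higher), and Lsd1 KO replicates 1 and 3 and Control replicate 2 (638, 727 and 781 lower). In the 5 lists the number higher was 11, 7 at an adjusted p under 0.01, 7 at 2-fold and 8 to 13 with a library left out; the number lower was 5, 1 and 2 under those thresholds, 2 to 6 with a library left out, and 10 with the length and GC correction. Without those last 3 libraries in turn the lists had 2, 2 and 3 lower. The log2 difference of the CDC25 to WEE1 and MYT1 ratio was 0.82, 0.68 to 1.02 with a library left out, 0.88 with the longest transcript, 0.81 without Pkmyt1 and 0.78 without Wee1. All of these kept Cdc25b in the CDC25 sum, so they do not show a shift apart from that gene.

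Replicate numbers gave no sign of pairing: deviations of libraries 1, 2 and 3 from their genotype means correlated at -0.03, 0.11 and -0.02. Libraries of unlike number gave -0.10 to 0.13. With 3 libraries a genotype these values cannot exclude a pairing. A replicate block gave 1270 genes higher and 1098 lower, 11 and 3 in the lists, and changed no call among the 10 genes.

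Pkmyt1 had the fewest counts of the 10 genes, 27 to 88 a library, and the widest interval. The intervals of Pkmyt1, Cdc25c and Wee1 all reached beyond 2-fold lower.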

Other observations

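Lsd1 KO replicate 2 was the highest of its genotype in 8 of the 10, the exceptions being Wee1 and Pkmyt1, and Control replicate 3 was the highest of its genotype in 7, the exceptions being Cdk1, Ccnb2 and Wee1. Over all genes tested the same libraries were highest in 35.1% and 39.2%. Blood and immune markers were lowest in Lsd1 KO replicate 2 within its genotype (29.8 CPM summed) and highest in Control replicate 3 within its own (58.2 CPM). Their part in these orders was not tested. By SD in CPM, the gene with the widest spread among Lsd1 KO libraries was Ccnb2, whose share of the summed per-length cyclin B level was 50.7%, 64.1% and 57.7% in Lsd1 KO libraries and 54.3%, 49.7% and 50.2% in Control libraries. Ccnb1 made up 41.6%, 31.0% and 36.4% in Lsd1 KO libraries and 41.5%, 44.6% and 43.9% in Control libraries. The copies of Ccnb1 leave these shares uncertain, and so does the length used. With the longest transcript Ccnb1 was above Ccnb2, at 230 against 224 CPM per kb in Lsd1 KO and 305 against 215 CPM per kb in Control.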
